A study of Homo sapiens with 6 samples.

Results

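The helper and effector cytokines of T lymphocytes are described here through 10 genes of type 1, type 2, type 17 and regulatory responses, namely IFNG, TNF, LTA, IL2, IL5, IL10, IL13, IL17A, IL22 and CSF2. They were chosen by name and matched by gene identifier without version to a processed table of 33644 genes. Of the 10 genes, 4 have a row in the table used here (IL2, IL5, IL10 and IL13), and the other 6 (IFNG, TNF, LTA, IL17A, IL22 and CSF2) are not analysed here. The series set wild-type HEK293T cells (genotype WT) against an alt-LAMA3 KO derivative of the same line, with 3 samples of each at day 0, no treatment, and culture in DMEM with serum. HEK293T is a human embryonic kidney line that carries SV40 large T antigen. Whether the knockout is 1 clone, and whether its samples were separate cultures, is not given in the sources used here. The p-values may then reflect technical spread alone.

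Cytokines are small secreted proteins through which lymphocytes instruct other cells. Type 2 cells release IL4, which switches B cells to IgE, IL5, which sustains eosinophils, and IL13, which acts on epithelium and smooth muscle, and their genes lie close together in a single cluster. IL2 is the growth factor that activated T cells make for themselves and for regulatory T cells, and IL10 restrains inflammation. All are made in bursts after the T-cell receptor signals through calcium and NFAT factors, and their mRNAs are short-lived because AU-rich elements after the stop codon recruit decay factors.

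The table gives 1 comparison between 2 groups that its header does not name, and it holds no value per sample. Positive log2 fold changes mean higher expression in what is called here the numerator group, as against the denominator group. Neither group can be equated with the wild type or the knockout. LAMA3, the gene that the knockout is named for, had a mean normalized count of 19.0 and a log2 fold change of -0.62 with an SE of 0.69 (adjusted p = 0.578) in the authors' deposited table, which gives no check of the labels. The content went against the labels in 2 respects. Among T-lymphocyte markers, 10 of 12 in the table were expressed, by the minimum defined below, led by CD8A at a mean normalized count of 27074 in the authors' deposited table. The 2 that were not were CD4, at 1.83, and CD5, at 1.87, in the authors' deposited table. None of 9 genes typical of HEK293-derived lines was expressed, the highest being LHX1 at 7.94 in the authors' deposited table. In addition, 9 very low means, where 6 labelled samples would give 6, were each shared by at least 50 genes and were no sum of 2 lower ones. The cytokine levels below are those of the libraries behind the table, which cannot be taken to be HEK293T cells. Markers of other blood cells were expressed in 1 of 7 genes for natural killer cells, 0 of 6 for B lymphocytes, 1 of 8 for myeloid cells and 1 of 6 for mast cells and basophils. The highest of each list in the authors' deposited table were NCAM1 for natural killer cells at 576, CD79B for B lymphocytes at 26.8, CD68 for myeloid cells at 103 and KIT for mast cells, also a receptor of progenitors, at 769. In the same order, 3, 2, 2 and 3 genes of these lists were listed at 0, among them NCR1, MS4A1, SPI1 and FCER1A. A 0 does not show absence, as described below. Others were detected under the minimum, among them FCGR3A at 61.6, BLK at 16.5, CSF1R at 20.7 and HDC at 23.3 in the authors' deposited table.

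The stretch before the transcription start is shown for the type 2 genes IL13 and IL4, which lie next to each other and were both lower, and for IL2, the growth factor. The sequences are from RefSeq (GRCh38.p14), which matched 3 of the 4 genes with a row (IL2, IL10 and IL13), and each covers the 250 bases before the start, read 5′ to 3′ on the gene's own strand. The start taken was the one nearest to the start of the gene's longest coding transcript. For IL13 this start lies inside the wider annotated gene span, so its window does too. Distances in the cluster described below count from the start of that span instead. Capitals mark the TATA box letters TATAAA and the NFAT core letters GGAAA, each searched on both strands.
IL13 (chr5:132657923-132658172, plus strand): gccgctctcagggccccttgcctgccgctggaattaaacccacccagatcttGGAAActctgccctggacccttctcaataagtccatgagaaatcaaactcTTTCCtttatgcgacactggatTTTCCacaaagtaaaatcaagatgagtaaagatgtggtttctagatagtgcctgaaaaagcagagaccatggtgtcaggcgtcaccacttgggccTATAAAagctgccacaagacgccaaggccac
IL4 (chr5:132673739-132673988, plus strand): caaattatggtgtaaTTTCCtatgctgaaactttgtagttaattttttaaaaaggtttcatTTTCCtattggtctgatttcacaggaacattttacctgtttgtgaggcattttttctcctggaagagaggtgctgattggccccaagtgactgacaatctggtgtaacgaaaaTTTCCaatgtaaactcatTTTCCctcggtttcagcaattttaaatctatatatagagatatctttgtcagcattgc
IL2 (chr4:122456726-122456975, minus strand): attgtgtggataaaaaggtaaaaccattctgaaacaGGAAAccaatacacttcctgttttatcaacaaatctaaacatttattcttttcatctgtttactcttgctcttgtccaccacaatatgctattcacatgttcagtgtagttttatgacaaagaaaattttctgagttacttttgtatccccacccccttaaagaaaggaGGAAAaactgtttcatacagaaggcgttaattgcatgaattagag
The IL13 window held the NFAT core 3 times and TATAAA once, with its last base 26 bases before the start. In the IL4 window the NFAT core occurred 4 times, and in the IL2 window 2 times. Of 35116 windows of the same length, 55.6% held the core at least once, 22.4% at least 2 times and 7.12% at least 3 times, and 10.7% held TATAAA. The window of IL10 held each of these motifs once. The AP-1 letters TGANTCA were not found in the IL2, IL4, IL10 or IL13 windows, and 6.57% of all windows held them. Nor were the letters AGATAA, a motif of GATA factors, which 9.17% of all windows held. A match is a description of the letters and not a measured binding site.

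Of the 4 cytokine genes, 2 were expressed, 1 was low and 1 was listed at 0. A gene counts as expressed here where its mean normalized count reaches 72.0, or 5 per 1000000 of the summed means. IL13 was the most abundant of the 4, with a mean normalized count of 3670 in the authors' deposited table, above 96.4% of the 21103 genes with a mean over 0. IL5 stood at 85.7 in the authors' deposited table, just over the minimum and above 62.0% of those genes. IL2 had a mean normalized count of 3.88 in the authors' deposited table, above 38.2% of the genes. IL10 was listed at 0, where the lowest mean over 0 in the authors' deposited table was 0.0586. A 0 does not show that the mRNA was absent, since NFKBIL1, a gene of many cell types next to the TNF locus, was also listed at 0.

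Per kilobase of merged exon, the order of levels was IL13, IL5, IL2. IL13 reached a mean normalized count of 1271 per kb, IL5 54.0 per kb and IL2 3.47 per kb, so that IL13 was 23.5 times IL5 and 367 times IL2 on this scale. With the longest transcript as the length the order was the same, and the ratios were 24.8 and 623. The spread of these levels over samples is not known from the table. Among the 28 other T-cell cytokines in the table, IL32, an inflammatory cytokine of lymphocytes, was above IL13 at 13543 per kb, and TGFB1, a regulatory cytokine, was close to it at 1224 per kb. The neighbouring type 2 gene IL4 stood at 45.1 per kb, near IL5.

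**Figure D1:**
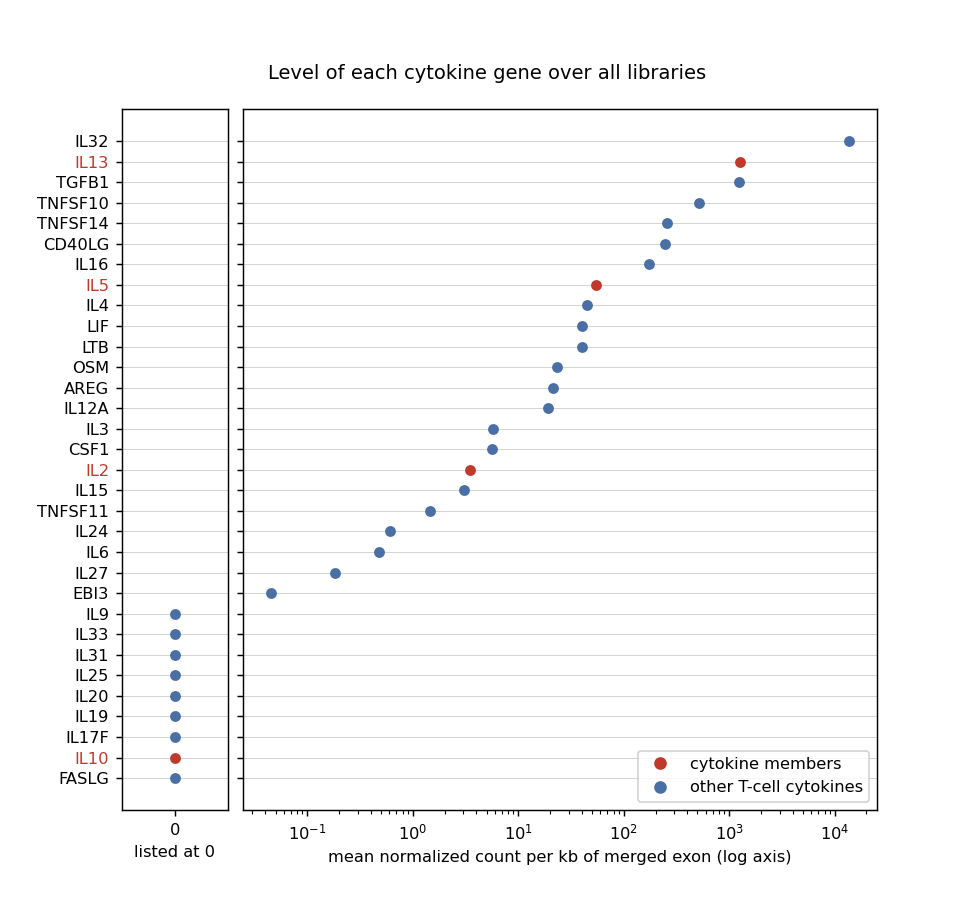
Mean normalized count per kb of merged exon over all libraries (log axis) for the 4 cytokine members (red) and 28 other T-cell cytokines (blue), with genes listed at 0 in the left panel. IL13 is second to IL32, IL5 lies in the upper middle beside IL4, IL2 is low at 3.47 per kb, and IL10 is among 9 genes at 0.

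Both expressed cytokines were lower in the numerator group, IL5 by about 4-fold and IL13 by about 2-fold. The authors' deposited table gave IL5 a log2 fold change of -2.09 with an SE of 0.30 (adjusted p = 5.89e-11), which is 4.26-fold lower, with a 95% interval of -2.68 to -1.50. For IL13 the log2 fold change was -1.01 in the authors' deposited table (SE 0.26, adjusted p = 0.000727), which is 2.01-fold lower, with an interval of -1.52 to -0.49. The 2 intervals overlap, and the table does not allow a test of the difference between them. IL2 did not pass the threshold of 0.05, with a log2 fold change of -2.53 with an SE of 1.26 (unadjusted p = 0.0449, adjusted p = 0.123) in the authors' deposited table. Its interval of -5.00 to -0.06 allows anything from a small to a very large difference at this depth. IL10 had no fold change. The adjusted p-values are those of the deposited Wald test, with Benjamini-Hochberg adjustment over 13957 genes, and 3 of the 4 cytokine genes reached the mean normalized count of 2.22 above which the authors' deposited table gives one.

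Of 3 cytokine genes tested, 2 were thus lower and 0 higher, where the comparison called 29.5% of all tested genes, 14.8% lower and 14.7% higher. Against a 1.5-fold change 4.68% of the genes were called, and 8.57% with the widened errors described below. The median log2 fold change of the 3 was -2.09, against 0.00 for all tested genes. Called genes were more frequent at high levels. Among the 500 tested genes nearest to IL13 in mean, 60.0% were called and 29.8% were called lower, and among the 500 nearest to IL5 these shares were 25.2% and 12.2%. T-lymphocyte markers moved in the same direction, with 8 of 10 tested members lower, 0 higher and a median log2 fold change of -0.55, and their part in the cytokine values was not tested. In such bulk RNA, fewer cells of a type and less RNA per cell cannot be told apart.

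**Figure D2:**
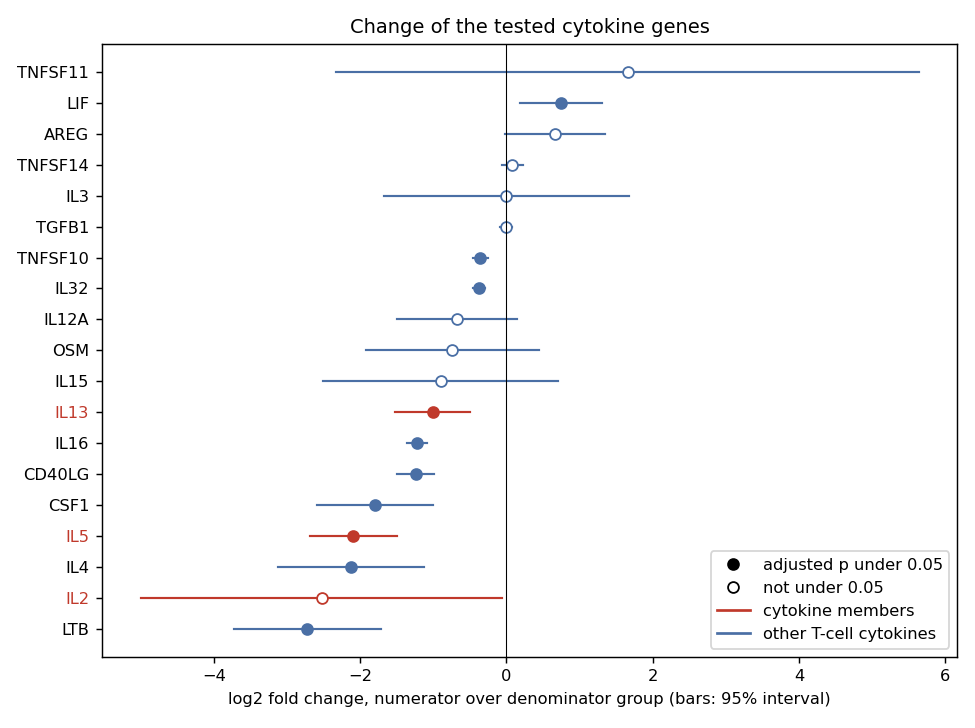
Log2 fold change of the numerator over the denominator group for 3 tested cytokine members (red) and 16 tested other T-cell cytokines (blue), with 95% intervals as bars and filled points for an adjusted p under 0.05. IL5 at -2.09 and IL13 at -1.01 lie below 0 with their whole intervals, and the interval of IL2 is the second widest after that of TNFSF11.

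The fold change of IL13 was less precise than those of genes at its level. Its standard error of 0.26 in the authors' deposited table was 4.21 times the median of 0.0623 among the 500 genes nearest in mean, and 99.4% of those genes had a smaller error. By contrast, IL5 had an error of 0.30 in the authors' deposited table, with a median of 0.30 among its own 500 nearest genes, and IL2 an error of 1.26 against 1.24. Which libraries spread apart in IL13 is not known from the table. The call of IL13 ended in a test against a 1.5-fold change (adjusted p = 1.00) and with every error widened by the spread of the statistics over all genes (adjusted p = 0.347), whereas IL5 was called in both (adjusted p = 2.44e-05 and 0.00983).

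**Figure D3:**
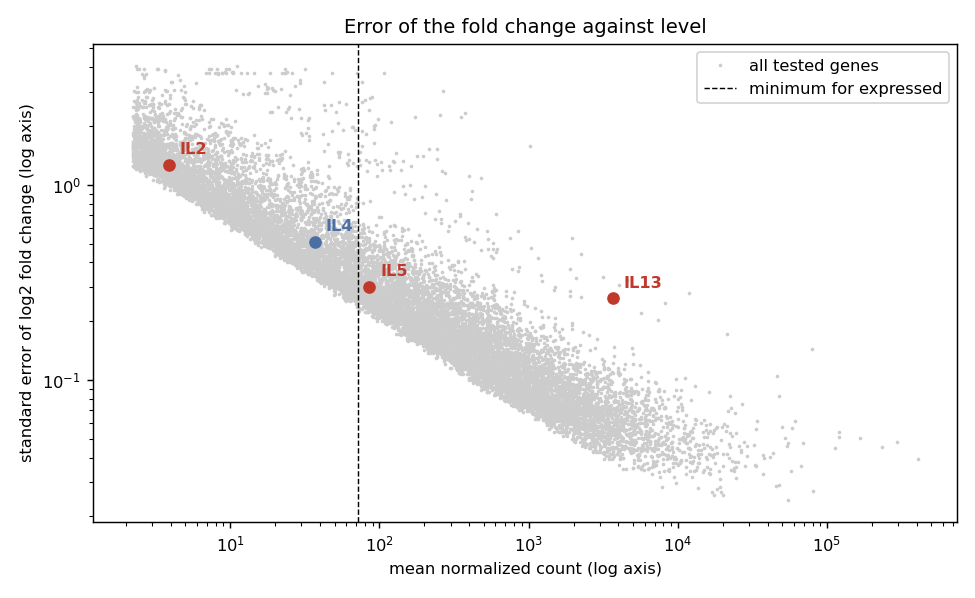
Standard error of the log2 fold change against the mean normalized count of each tested gene (both log axes), with IL2, IL5 and IL13 in red, IL4 in blue and the minimum for expressed genes as a dashed line. IL2, IL4 and IL5 lie within the band of all genes, and IL13 lies well above it.

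IL5 and IL13 share a cluster on chromosome 5, where IL4 also lies, and all 3 type 2 cytokine genes were lower. On GRCh38 with GENCODE 29, IL5 (ENSG00000113525.9) spans chr5:132541444-132556838 on the minus strand, and IL13 (ENSG00000169194.9) spans chr5:132656263-132661110 on the plus strand. IL4 starts 17.7 kb beyond the start of this IL13 span. In the authors' deposited table IL4 had a mean normalized count of 36.9, under the minimum for expressed genes, and a log2 fold change of -2.12 with an SE of 0.51 (adjusted p = 0.000214), which is 4.36-fold lower. The call of IL4 ended against a 1.5-fold change (adjusted p = 0.0541) and with widened errors (adjusted p = 0.271).

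Of the 15 genes of the table within the 677 kb from IL3 to KIF3A, 11 were tested, 6 were lower and 1 was higher, where 14.8% and 14.7% of all tested genes were. The 6 include IL5, IL13 and IL4, given above. Lower calls were more frequent at high levels, with 29.8% among the 500 tested genes nearest to IL13 in mean. RAD50, a DNA repair gene whose far end holds the locus control region of the type 2 cytokines, lies between IL5 and IL13. Its log2 fold change was -0.37 (SE 0.07) in the authors' deposited table, with a mean normalized count of 3165. KIF3A, a motor protein gene of cilia beyond IL4, was at -0.40 (SE 0.07) and IRF1, an interferon-induced transcription factor gene beyond IL5, at -0.67 (SE 0.06) in the authors' deposited table. All 3 were called lower, and their intervals lay above that of IL5 but overlapped that of IL13 (-1.52 to -0.49). With widened errors the calls of RAD50 (adjusted p = 0.0677) and KIF3A (adjusted p = 0.0788) ended, and against a 1.5-fold change those of all 3 ended (adjusted p = 1.00). The gene that was higher was P4HA2, a collagen prolyl hydroxylase, at 1.06 (SE 0.14) in the authors' deposited table. IL3, a growth factor of blood progenitors at the other end of the cluster, was low at a mean normalized count of 6.06 and a log2 fold change of 0.00 (SE 0.85) in the authors' deposited table. Reads of IL5 and RAD50 may not be fully separable, as the annotated spans of the 2 genes overlap on opposite strands, and the IL13 span overlaps the antisense gene TH2LCRR. Whether the counting used strand is not given in the sources used here.

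**Figure D4:**
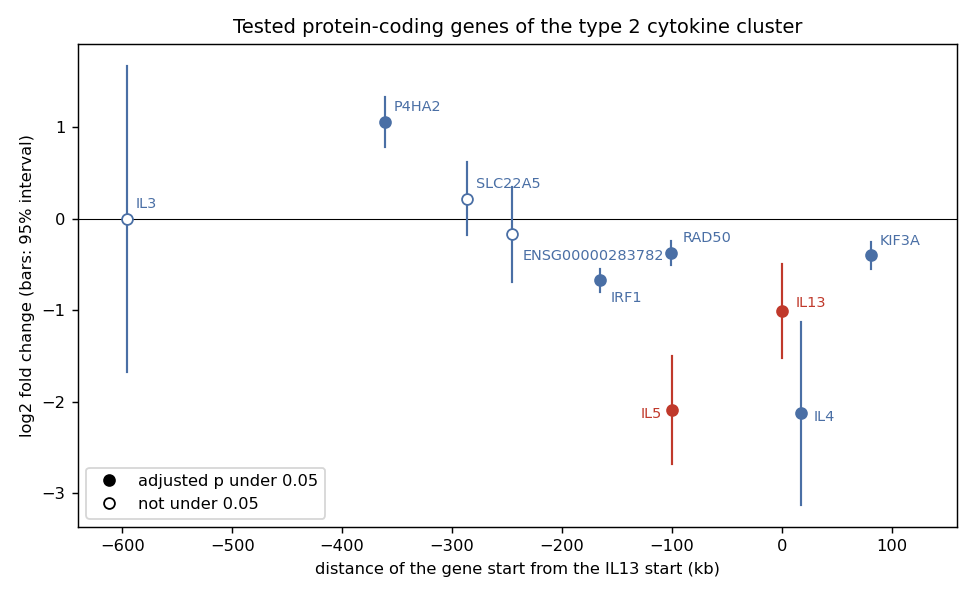
Log2 fold change with 95% interval for the tested protein-coding genes from IL3 to KIF3A on chromosome 5. Genes are placed by the distance of their start from the start of the annotated IL13 gene span in kb. Filled points have an adjusted p under 0.05. Among the genes shown, IL5, IL13 and IL4 are the lowest points, RAD50 and KIF3A lie at -0.37 and -0.40, and P4HA2 is above 0 at 1.06. CCNI2, just beyond KIF3A, is not shown.

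The genes next to IL2 and IL10 ranged from 0 to abundant. IL2 (ENSG00000109471.4) spans chr4:122451470-122456725 on the minus strand. Its neighbour ADAD1, a testis gene, was listed at 0. BLTP1, beyond ADAD1, had a mean normalized count of 4892 and did not pass, at -0.12 (SE 0.10) in the authors' deposited table. No gene within 250 kb of IL2 was called. BBS12, a chaperonin-like gene that lies farther than 250 kb from IL2, was at a mean normalized count of 9.37 in the authors' deposited table. Its log2 fold change there was 6.70 with an SE of 2.18 (adjusted p = 0.00920). That call ended against a 1.5-fold change (adjusted p = 0.0938) and with widened errors (adjusted p = 0.574). IL10 (ENSG00000136634.5) spans chr1:206767602-206772494 on the minus strand. The related cytokine genes IL19 and IL20 beside it were listed at 0 and IL24 had a mean normalized count of 1.21 in the authors' deposited table. MAPKAPK2, a stress kinase gene on the other side of IL10, was abundant at 3213 and lower, at -0.37 (SE 0.05), in the authors' deposited table. FCMR, beyond IL24, had a mean of 25.1, under the minimum for expressed genes, and was lower, at -3.17 (SE 0.65), in the authors' deposited table. Within 250 kb of IL10, 6 genes were tested, 3 were lower and 0 higher, where 14.8% and 14.7% of all tested genes were.

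Across all 22 listed neighbours of the 10 cytokine genes that are in the table, 15 were tested, 9 were lower and 3 higher, where 14.8% and 14.7% of all tested genes were. Beside the TNF locus, LTB, the lymphotoxin that anchors LTA at the cell surface, was at -2.72 (SE 0.51, adjusted p = 1.21e-06) and LST1, a leukocyte gene, at -3.49 (SE 0.82) in the authors' deposited table. Both lost their call with widened errors (adjusted p = 0.0903 and 0.255). ATP6V1G2, a proton pump subunit there, was at 0.10 (SE 0.69) and did not pass. Near IL17A, IL17F and PAQR8 were listed at 0, and MCM3, part of the replicative helicase, was at 1.12 (SE 0.17) in the authors' deposited table. MDM1, a centriole gene near IL22, with IFNG farther off on the far side of IL22, was at -0.74 (SE 0.09) in the authors' deposited table. ACSL6, a fatty acid ligase near IL3 and CSF2, was at -2.40 (SE 0.66) in the authors' deposited table. SEPTIN8, a cytoskeletal gene beyond KIF3A, was at -0.07 (SE 0.09) in the authors' deposited table and did not pass.

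Among other cytokines of T cells, lower calls outnumbered higher ones in this list. Of 32 listed, 28 are in the table, 8 of them at 0, and of 16 tested 7 were lower, 1 was higher and 8 did not pass, with a median log2 fold change of -0.52. Among all tested genes 14.8% were lower and 14.7% higher. The lists overlap, and the lower calls of LTB and IL4 also count among the neighbours above. The largest changes were of LTB and IL4, given above, and of CSF1, which sustains macrophages, at -1.80 in the authors' deposited table (SE 0.40). The call of CSF1 ended against a 1.5-fold change (adjusted p = 0.0556) and with widened errors (adjusted p = 0.210). CD40LG, through which helper T cells license B cells, was at -1.24 (SE 0.13) and IL16, a chemoattractant for CD4+ cells, at -1.23 (SE 0.07) in the authors' deposited table. IL32 was lower by a small amount, at -0.37 (SE 0.04), and TGFB1 did not pass at -0.01 (SE 0.04) in the authors' deposited table. LIF, a cytokine of the IL6 family, was the single rise, at 0.74 in the authors' deposited table (SE 0.29, adjusted p = 0.0351), and that call ended without a filter on low means (adjusted p = 0.0530), against a 1.5-fold change (adjusted p = 1.00) and with widened errors (adjusted p = 0.734). Genes listed at 0 included the type 2 cytokine IL9, the type 17 cytokine IL17F and the death ligand FASLG.

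Receptors for the 10 cytokines had 14 tested members, of which 8 were lower and 1 higher, beside 14.8% and 14.7% of all tested genes, with a median log2 fold change of -0.37. IL2RA, the high-affinity subunit for IL2, was the most abundant at a mean normalized count of 27989, with a log2 fold change of -0.14 (SE 0.05) in the authors' deposited table. IL2RG, the common gamma chain, followed at 18282 with -0.32 (SE 0.06) in the authors' deposited table. IL2RB, the beta subunit that pairs with them, was at a mean of 8.03 in the authors' deposited table, and the table does not tell whether that mean holds all its reads. Among the larger falls were CSF2RA and CSF2RB, subunits of the receptors for CSF2 and, for CSF2RB, IL3 and IL5, at -1.55 (SE 0.45) and -1.09 (SE 0.33) in the authors' deposited table. IL10RA, the ligand-binding chain for IL10, was at -1.29 in the authors' deposited table (SE 0.06, adjusted p = 1.04e-102). The receptor subunit that was higher was IL4R, which serves IL4 and IL13, at 0.30 (SE 0.07) in the authors' deposited table. IL5RA, which binds IL5, stood at a mean of 1.57 in the authors' deposited table, and IL13RA2 was listed at 0. The calls of IL2RA, IL2RG, CSF2RA, CSF2RB and IL4R ended with widened errors (adjusted p = 0.652, 0.0592, 0.447, 0.497 and 0.295) and against a 1.5-fold change (adjusted p = 1.00, 1.00, 0.422, 1.00 and 1.00).

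Transcription factors that drive these cytokines went in both directions. Of 24 tested, 10 were lower, 6 higher and 8 did not pass, where 29.5% of all tested genes were called, and the median log2 fold change was -0.10. MAF, which activates IL4 and IL10, had the smallest adjusted p of the list, with a log2 fold change of -2.32 with an SE of 0.08 (adjusted p = 9.62e-164) and a mean normalized count of 1654 in the authors' deposited table. HLX, a homeobox partner of the type 1 programme, was at -4.15 (SE 0.59) with a mean of 35.0 in the authors' deposited table. PRDM1, a repressor that acts on the IL2 gene, rose by 2.07 (SE 0.22, adjusted p = 9.58e-20) on the log2 scale in the authors' deposited table. The factors NFATC1, NFATC2 and NFATC3, whose core letters are shown in the windows above, were at -1.28 (SE 0.24), -1.22 (SE 0.16) and -1.28 (SE 0.06) in the authors' deposited table. All 3 were called lower, but NFATC1 lost its call against a 1.5-fold change (adjusted p = 0.0760) and with widened errors (adjusted p = 0.0875).

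GATA3, the factor that defines type 2 cells, had a mean normalized count of 71.2 and did not pass, at -0.58 in the authors' deposited table (SE 0.46, adjusted p = 0.396). TBX21, which defines type 1 cells, had a mean of 0.669, and FOXP3, of regulatory T cells, was listed at 0 in the authors' deposited table. EOMES, a relative of TBX21 in CD8+ cells, was at -1.25 (SE 0.18) with a mean of 166 in the authors' deposited table. BHLHE40, a factor of cytokine-producing T cells, was abundant, at a mean of 17453 and a log2 fold change of -0.63 (SE 0.06) in the authors' deposited table.

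The mRNAs of the 4 cytokine genes hold the AU-rich letters ATTTA after the stop codon, a feature that the choice of genes did not use. The stretch of 30 bases with the most ATTTA letters, in capitals, is shown for the 3 cytokines with a mean over 0, from the longest coding transcript in GENCODE 29 (GRCh38).
IL2: ATTTATTTAaatATTTAaattttatATTTA
IL5: ttaagaatttggtaaattagtATTTATTTA
IL13: ttggtcttATTTAttattgtgtgttATTTA
After its stop codon IL2 held ATTTA 7 times in 282 bases, or 24.8 per kb, which is more than in 99.96% of 17997 protein-coding genes. IL5 held it 5 times in 367 bases (13.6 per kb, above 99.6% of the genes). IL13 held it 4 times in 828 bases (4.83 per kb, above 90.0%), and IL10 8 times in 1034 bases (7.74 per kb, above 97.5%). The median over all genes was 1.60 per kb. IL13, the most abundant of the 4, thus had the lowest density, a description over 4 genes. The median count of ATTTA after the stop codon was 2 over all genes, and no background was computed for the windows of 30 bases. The longer letters TTATTTAT occurred once each in IL2, IL10 and IL13 and were not found in IL5, where 15.9% of all genes held them.

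Genes that bind or clear such AU-rich mRNAs were called in both directions. Of 14 tested, 3 were higher, 3 lower and 8 did not pass, beside 29.5% called among all tested genes, and the median log2 fold change was -0.03. ZFP36L1, which binds AU-rich elements and recruits deadenylases, was at 0.75 in the authors' deposited table (SE 0.07, adjusted p = 3.22e-28). RC3H1 and RC3H2, the roquins that clear cytokine mRNAs, were at -0.40 (SE 0.09) and -0.47 (SE 0.19) in the authors' deposited table. HNRNPD, an AU-binding protein, was at 0.18 (SE 0.04) with a mean normalized count of 14908, and CNOT1, the scaffold of the deadenylase complex, did not pass at 0.15 (SE 0.10) in the authors' deposited table. All calls but that of ZFP36L1 ended with widened errors, and none of the 6 held against a 1.5-fold change.

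Genes induced by IFNG or IL2 signals had 16 tested members, of which 5 were higher and 6 lower, against background shares of 14.7% and 14.8%, with a median log2 fold change of -0.20. The lower calls of IRF1 and IL2RA also count in the lists of neighbours and receptors. CXCL11, a chemokine induced by IFNG, was at 2.55 (SE 0.67) with a mean normalized count of 15.3, whereas GBP5, an interferon-induced GTPase, was at -0.43 (SE 0.04) with a mean of 6826 in the authors' deposited table. The call of CXCL11 ended against a 1.5-fold change (adjusted p = 0.0686) and with widened errors (adjusted p = 0.357). PIM1, a survival kinase downstream of IL2, was at -1.72 (SE 0.17) and BCL2, an inhibitor of apoptosis, at -1.19 (SE 0.14) in the authors' deposited table. CISH, a feedback inhibitor that IL2 induces, was at 0.37 in the authors' deposited table (SE 0.15, adjusted p = 0.0391). The call of CISH ended without a filter on low means (adjusted p = 0.0591), against a 1.5-fold change (adjusted p = 1.00) and with widened errors (adjusted p = 0.747).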

How the data were processed

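The submitters' processing notes name STAR, Salmon and hg38, with neither versions nor roles. The deposited table was made by the authors with steps that no source used here describes, and per the file headers its columns carry the names of DESeq2's Wald test results. Per the file headers, baseMean holds mean normalized counts of all libraries, a signal. Deposited fold changes and their errors are log2 values. The deposited statistic, a score, equals their ratio to within 4.23e-07, and the deposited p-value and adjusted p follow from it. Depth per library is not known. The planned fits on values per sample were replaced by the deposited comparison.

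Gene names matched 33483 IDs and GENCODE 29 matched 33582. Intervals are the log2 fold change plus or minus 1.96 standard errors. Alternative tests were tested on simulated data. Python 3.11.15, numpy 2.4.6, pandas 2.3.3, scipy 1.17.1 and matplotlib 3.10.9 were used. The cytokine genes and lists were chosen with earlier results of these data known. Named genes were the 10 cytokines, each list's 3 largest calls and 2 highest means, all neighbours, and the highest marker of each list. Other genes were named after their values were seen. Values of some listed genes are not reported here.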

Additional observations from a re-analysis of the deposited data

How the results depend on the processing

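The count of expressed cytokines (2 of 4) was the same at a minimum mean of 10 and at 1 per 1000000. The count of called cytokines was 2 with a minimum mean of 72.0, without a filter and among protein-coding genes only, and 1, IL5, against a 1.5-fold change and with errors widened 2.03 times. Against a 1.5-fold change 4.68% of 13957 genes were called, and with widened errors 8.57%. Counts of calls in the lists were, against a 1.5-fold change and with widened errors, 3 and 4 of 8 for other cytokines, 4 and 5 of 12 for neighbours, 2 and 3 of 9 for receptors, 0 and 1 of 6 for AU-rich regulators, and 2 and 4 of 11 for targets. For transcription factors the counts were 6 and 11 of 16. Without a filter on low means the counts were 7 of 8 for other cytokines, 12 of 12 for neighbours and 9 of 9 for receptors. They were 15 of 16 for transcription factors, 4 of 6 for AU-rich regulators and 9 of 11 for targets. At a minimum mean of 72.0 the count was 5 for other cytokines and 7 for neighbours, where fewer genes were tested. Of 51 tested genes examined singly, 43 were called. Without a filter on low means 3 of these (LIF, CISH and RC3H2) were no longer called, with widened errors 21 and against a 1.5-fold change 27, with ACSL6 among both. No direction reversed, as every alternative uses the deposited fold change. No paired analysis was possible because the table holds no value per sample, and leaving out libraries, other normalizations and other tools were not run for the same reason. Low counts limit IL2, at a mean of 3.88, and IL10, listed at 0, had no test.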
